A study of Mus musculus with 16 samples.

Results

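The data described here are transcript levels in macrophage and dendritic cell progenitors (MDPs) with reduced Dnmt1. They come from 8 of the 16 arrays of the series: 4 arrays of MDPs from Dnmt1c/chip mice and 4 of MDPs from Dnmt1+/+ mice, called control below, chosen by cell source and genotype in the labels. The mice were 8 to 12 weeks old, and the cells were sorted from bone marrow of femurs and tibiae as Lin-cKithiCD115+CD11b-Ly-6C-. The other 8 arrays hold common monocyte progenitors (cMoPs, the Ly-6C+ cells of the same gate) of both genotypes and were used for the shared estimate of the spread and for 1 comparison at the end. The titles of the 4 control cMoP arrays name both genotypes, while their source and genotype labels give Dnmt1+/+ alone, and they were grouped by the source. Their mean Dnmt1 level was 9.78, against 9.86 in control MDPs, 8.88 in c/chip cMoPs and 8.75 in c/chip MDPs. Amplified RNA was made from 300 ng of total RNA. The labels do not say whether each array is 1 animal or a pool, so p values measure the spread between these samples, which may not be that between single animals. In the field the chip allele is known as a hypomorphic one and the c allele as a null one. Such animals have less Dnmt1 in all their tissues, not in MDPs alone, and this limits the comparison as a model of Dnmt1 in MDPs.

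Dnmt1 copies CpG methylation onto the new DNA strand after replication, and cells with too little of it lose methylation as they divide. In blood formation, methylation is known to be laid down and removed at different genes in the myeloid and lymphoid branches, and mice with low Dnmt1 have been described as making few lymphoid cells. MDPs are rapidly dividing cells with high Kit and Csf1r (the CD115 receptor for the macrophage growth factor CSF1), and they give rise to monocytes, macrophages and dendritic cells.

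Levels are given on the log2 scale of the deposited values, on which the medians of the 16 arrays lay between 3.43 and 3.62. No detection calls were used, so no fold is given where a group's mean lay under 3.541, the middle of these medians, since such a level may be background. A gene was called changed when limma's moderated test over all 16 arrays gave an adjusted p under 0.05 (Benjamini-Hochberg over 22180 genes). Each array correlated with the other arrays of its group at a mean r of 0.972 to 0.987. The genotype groups were not alike in sex-linked transcripts. Control MDP replicates 1 and 2 carried Xist (11.3 and 11.4) and lacked the Y-linked transcripts of Eif2s3y, Kdm5d and Uty, and replicates 3 and 4 were the reverse. Among the c/chip MDP arrays, replicate 2 carried only the Y-linked transcripts, while replicates 1, 3 and 4 carried both Xist (9.51 to 10.6) and the Y-linked transcripts (5.27 to 6.42). Whether pooling differed between the groups was not tested. The overall counts and those of the main lineage lists are given again with Xist and Y-linked levels as covariates, and with replicate 2 standing alone for the c/chip MDPs, an alternative added after the values were seen. Their part in the differences was not tested further.

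Transcripts of Kit and Csf1r, for which the gate selected, were high in both groups. Kit read 9.07, 9.07, 9.10 and 9.31 on the control arrays and 9.51, 9.10, 9.29 and 9.15 on the c/chip arrays and did not pass the test (0.12, adjusted p = 0.786). Csf1r was at 8.83, 9.13, 8.97 and 9.18 on the control arrays and 8.55, 8.57, 8.16 and 8.97 on the c/chip arrays, a difference of -0.47, adjusted p = 0.152. The transcript of the excluded CD11b chain, Itgam, was near 5.98 in controls and 6.20 in c/chip MDPs (0.22, adjusted p = 0.769). Ly6c2, which encodes the Ly-6C antigen that the gate excluded, rose from 10.21 ± 0.26 to 11.27 ± 0.17 (SD, n = 4), a difference of 1.06 ± 0.136 (SE, n = 4 and 4), 2.09-fold higher, adjusted p = 0.000472, and the 4 c/chip arrays all lay above the 4 control arrays. By exact two-sided permutation of 4 against 4 arrays, for which 0.0286 is the smallest possible p, Ly6c2 gave 0.0286, Csf1r 0.0857, Ly6c1 0.0571, Kit 0.229 and Itgam 0.571.

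Markers of MDPs and of several other cell types moved with genotype. The mean level of 5 MDP markers (Kit, Csf1r, Flt3, Cx3cr1 and Cd34) was 9.18 to 9.36 on the control and 8.66 to 9.03 on the c/chip MDP arrays. These ranges did not overlap, and 1 of the 5 genes was called lower. The mean level of 9 neutrophil markers was 3.5 to 6.41 on the control and 6.17 to 9.03 on the c/chip MDP arrays, that of 6 megakaryocyte markers 3.14 to 4.26 and 4.79 to 6.11, and that of 8 mast cell and basophil markers 4.59 to 5.28 and 5.74 to 6.98. The 6 granulocyte progenitor markers averaged 9.3 to 9.52 and 10.03 to 10.29, and 3 of them were called higher. They averaged 10.24 to 10.32 in control and 10.3 to 10.56 in c/chip cMoPs, so such levels are not particular to granulocyte progenitors. The 4 erythroid markers averaged 5.53 to 5.76 on the control and 5.54 to 7.86 on the c/chip MDP arrays. The mean of 6 plasmacytoid dendritic cell markers was lower, at 4.92 to 5.56 and 4.33 to 4.6, but only 2 of the 6 were called lower. Of the rest, Ccr9, Klk1 and Pacsin1 lay below the array median in both MDP groups. The B cell markers Pax5, Ebf1, Ms4a1 and Vpreb1 and the T cell markers Cd3e, Cd3d and Cd3g lay below the array median in both groups. In such bulk samples, more cells of another type and more RNA of these genes per cell cannot be told apart, and the part of other cells in the gene groups below was not tested.

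**Figure D1:**
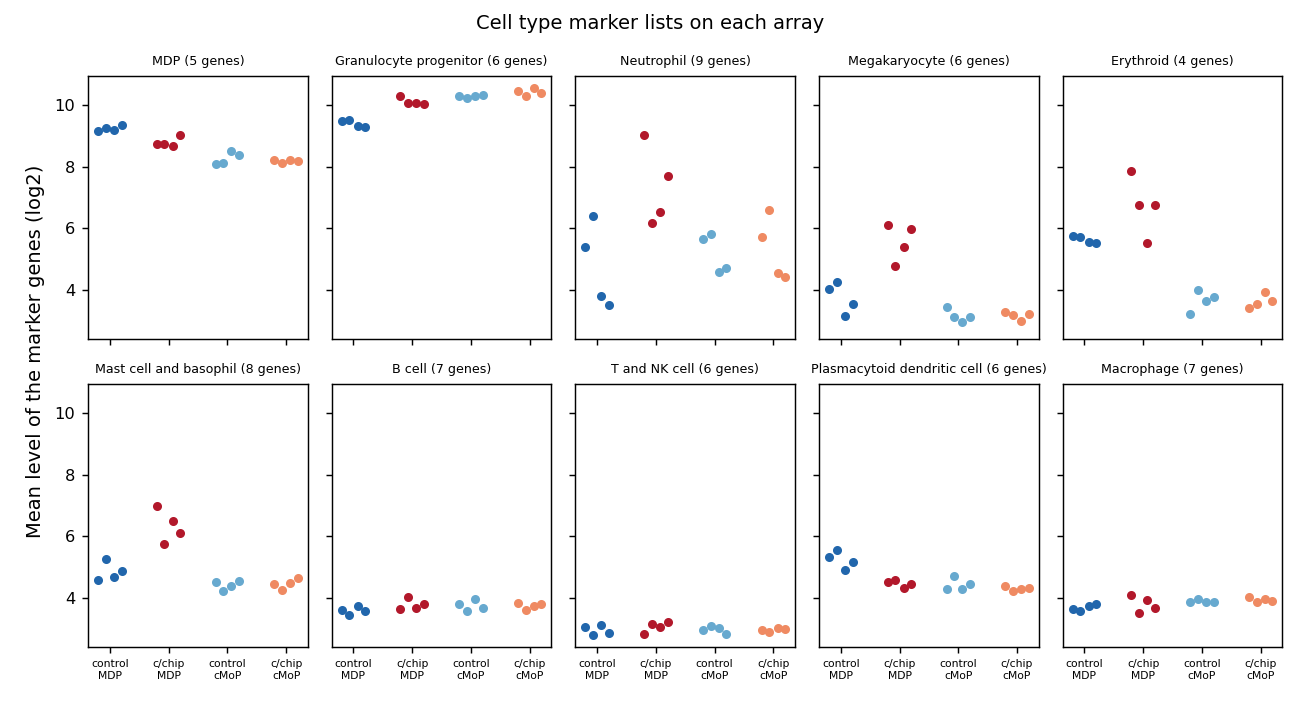
Mean log2 level of the genes of each cell type marker list (vertical axis) on every array (points) of the 4 groups (horizontal axis). The c/chip MDP arrays lie above the control MDP arrays for the granulocyte progenitor, megakaryocyte and mast cell and basophil lists, overlap them for the neutrophil and erythroid lists, and lie below them for the MDP and plasmacytoid dendritic cell lists; B cell, T and NK cell lists stay between 2.81 and 4.03 in MDPs.

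Dnmt1 itself read 9.82, 9.81, 9.86 and 9.95 on the control arrays and 8.89, 8.36, 8.97 and 8.79 on the c/chip arrays. No c/chip array overlapped a control array, and the fall was a difference of -1.10 ± 0.137 (SE, n = 4 and 4), 2.15-fold lower, adjusted p = 0.000348. An exact two-sided permutation test gave the smallest possible p of 0.0286. Dnmt1 was the single member called among 23 measured genes of the DNA methylation machinery. Of the others, Tet2, which oxidises methylcytosine, came closest with -0.79, adjusted p = 0.0653. Uhrf1, the partner that brings Dnmt1 to newly replicated DNA, differed by 0.31, adjusted p = 0.541. None of 30 heterochromatin and silencing genes and none of 15 histone genes was called. Their largest differences included Morc2a (0.47, adjusted p = 0.0807), Ring1 (0.55, adjusted p = 0.0986), H2aw (-2.09, adjusted p = 0.0949) and Macroh2a2 (0.70, adjusted p = 0.513). Of 47 imprinted genes, which are expressed from 1 parental allele under control of methylation, none was called either, and the largest values were Kcnq1ot1 with -0.89, adjusted p = 0.0653 and Cd81 with 0.70, adjusted p = 0.0768. At an unadjusted p under 0.05, limma passed 6 DNA methylation genes with Dnmt1 among them, 6 heterochromatin, 2 histone and 6 imprinted genes, and 3169 of all genes. A gene that was not called is therefore not shown to be unchanged.

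Across all genes, 280 (1.26%) were called higher and 152 (0.685%) lower in c/chip MDPs, and 147 (0.663%) and 67 (0.302%) also differed at least 2-fold. The median difference over all genes was 0.026, and 54.3% of genes had a positive difference. The called genes had a median difference of 1.03 when higher and -0.94 when lower, and the smallest called difference was 0.473. In 390 of the 432 called genes (1.95% of all) the 4 c/chip and 4 control arrays did not overlap, against 7.0% of all genes. The calls were made on these same values, so this larger share follows from the calling and is no separate evidence. Few calls fell among dim genes: ordered by level in 5 equal bins, the share called was 0.113% in the dimmest bin, 4.42% in the fourth and 3.09% in the brightest. The 52 gene lists used below measured 2289 genes and held 145 of the calls. A list can share members with another, so their counts do not add up. The lists and their members were chosen with earlier results of these data known. Each count is to be read beside the 1.26% of all genes higher and 0.685% lower, and the larger shares among bright genes. A share near these is no result about a list. Examples are the T cell and NK cell (2.44% called), DNA replication (1.75%), neuronal (1.67%) and cholesterol and fatty acid (1.64%) lists.

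**Figure D2:**
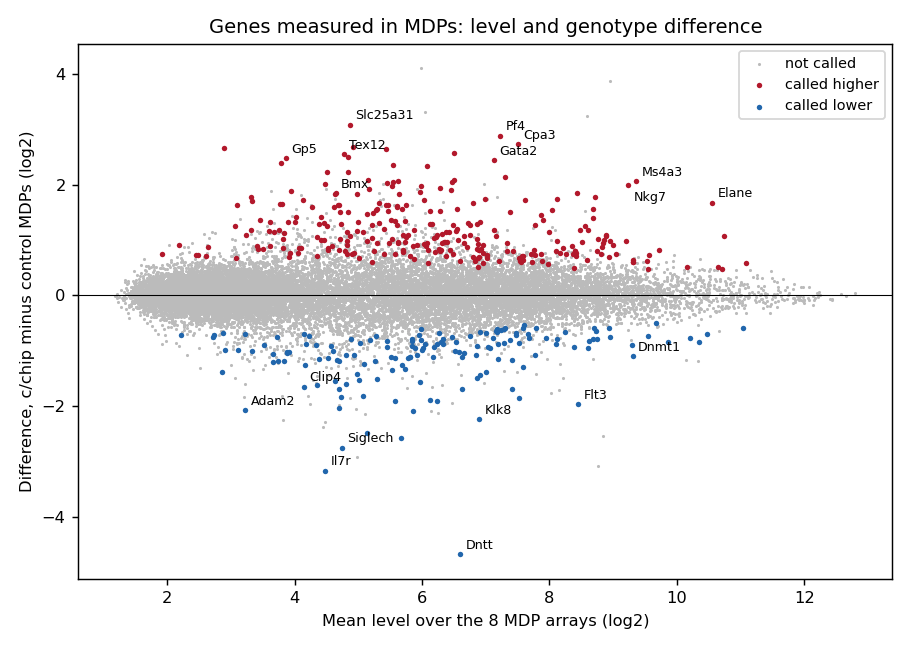
Log2 difference between c/chip and control MDPs (vertical axis) against the mean log2 level over the 8 MDP arrays (horizontal axis) for 22180 genes. The 280 genes called higher are red, the 152 called lower blue, and Dntt lies lowest, at -4.68.

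The counts depended on the fit. With the sex-linked covariates 53 (0.239%) genes were higher and 31 (0.14%) lower. With c/chip replicate 2 alone the counts were 104 (0.469%) and 61 (0.275%), and in a fit of the 8 MDP arrays without the cMoPs they were 46 (0.207%) and 18 (0.0812%). Leaving out control MDP replicate 3 gave the fewest calls of any single array, 130 higher and 84 lower. Of 162 called genes chosen for naming, 83 kept their call without any 1 of the 16 arrays, and 25 under every alternative run. Those 25 were Dnmt1, AB124611, Adam2, Bmx, Car3, Cd300c, Clec11a, Clip4, Cpne2, Cxcr2, Dntt, Elane, Flt3, Gp5, Gsr, Gstm1, Hdc, Ly6c2, Ms4a3, Nkg7, Papss2, Slc25a31, Trem3, Vat1 and Zfp433.

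Germline genes include the best known targets of promoter methylation in somatic cells, and a few of them were higher in c/chip MDPs. Of 30 measured meiotic genes 4 were called higher and none lower, and of 44 other germline genes 2 were higher and 1 lower. The medians of both lists, 0.048 and 0.007, lay near that of all genes. The promoters of 4 of these 6 higher genes are printed here as examples with 16 to 30 CpG sites (the other 2, Rpl39l and Syce1, had 17 and 14), and those of Ms4a3 and Gp5, a granulocyte and a platelet gene described further on, because they hold none. Each window holds 300 bases, mostly before a gene's first listed RefSeq start (GRCm38.p6), on the gene's own strand, and each CG is in capitals.

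The windows are, in order, chr3:40708621-40708920 (+) with 22 CpG for Slc25a31, chr9:50561219-50561518 (-) with 26 CpG for Tex12, chr5:138280259-138280558 (+) with 30 CpG for Stag3, chr11:4441033-4441332 (-) with 16 CpG for Hormad2, chr19:11640802-11641101 (-) with 0 CpG for Ms4a3 and chr16:30310732-30311031 (-) with 0 CpG for Gp5.
Slc25a31: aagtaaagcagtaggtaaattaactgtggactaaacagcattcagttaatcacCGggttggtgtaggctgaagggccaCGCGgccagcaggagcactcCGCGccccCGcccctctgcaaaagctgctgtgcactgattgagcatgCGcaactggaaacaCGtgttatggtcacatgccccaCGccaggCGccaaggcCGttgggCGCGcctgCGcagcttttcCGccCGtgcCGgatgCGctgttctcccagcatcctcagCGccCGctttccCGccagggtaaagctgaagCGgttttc
Tex12: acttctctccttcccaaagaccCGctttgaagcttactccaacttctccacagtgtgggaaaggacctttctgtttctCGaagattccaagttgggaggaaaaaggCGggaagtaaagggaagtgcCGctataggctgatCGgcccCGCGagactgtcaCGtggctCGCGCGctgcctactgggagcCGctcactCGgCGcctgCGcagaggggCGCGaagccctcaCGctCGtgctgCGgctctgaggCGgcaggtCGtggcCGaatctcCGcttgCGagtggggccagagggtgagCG
Stag3: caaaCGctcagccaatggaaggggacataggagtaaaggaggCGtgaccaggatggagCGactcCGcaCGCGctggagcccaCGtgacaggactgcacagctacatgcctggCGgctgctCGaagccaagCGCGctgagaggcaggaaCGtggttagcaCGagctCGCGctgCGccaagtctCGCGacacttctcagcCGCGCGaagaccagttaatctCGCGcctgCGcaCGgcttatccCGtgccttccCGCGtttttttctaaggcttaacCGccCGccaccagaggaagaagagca
Hormad2: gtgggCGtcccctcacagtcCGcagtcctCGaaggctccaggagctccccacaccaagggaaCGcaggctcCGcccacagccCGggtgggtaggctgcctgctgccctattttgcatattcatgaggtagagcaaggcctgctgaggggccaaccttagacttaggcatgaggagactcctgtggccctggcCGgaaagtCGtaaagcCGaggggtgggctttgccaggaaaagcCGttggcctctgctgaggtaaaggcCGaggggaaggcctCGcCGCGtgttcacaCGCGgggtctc
Ms4a3: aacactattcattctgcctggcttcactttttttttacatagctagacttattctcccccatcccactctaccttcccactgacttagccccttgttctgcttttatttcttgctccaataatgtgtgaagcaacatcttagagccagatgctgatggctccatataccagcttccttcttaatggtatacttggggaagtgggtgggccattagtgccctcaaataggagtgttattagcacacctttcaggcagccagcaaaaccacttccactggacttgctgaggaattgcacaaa
Gp5: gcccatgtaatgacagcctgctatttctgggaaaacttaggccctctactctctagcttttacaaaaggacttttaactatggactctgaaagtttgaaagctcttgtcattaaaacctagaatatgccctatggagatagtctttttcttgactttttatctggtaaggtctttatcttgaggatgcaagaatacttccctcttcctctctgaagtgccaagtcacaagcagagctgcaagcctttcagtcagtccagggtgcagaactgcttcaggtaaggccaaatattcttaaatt

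Slc25a31, the ADP/ATP carrier of sperm mitochondria, read 2.93, 3.15, 3.32 and 3.90 on the control arrays and 6.28, 6.89, 6.73 and 5.74 on the c/chip arrays, a difference of 3.08 ± 0.448 (SE, n = 4 and 4), adjusted p = 0.00151. The 4 control arrays lay near or below the array median, and every c/chip array lay well above it. Tex12, a part of the synaptonemal complex that holds paired chromosomes together in meiosis, read 3.11, 4.47, 3.55 and 2.86 on the control arrays and 6.55, 5.87, 5.42 and 6.37 on the c/chip arrays, a difference of 2.56 ± 0.415 (SE, n = 4 and 4), adjusted p = 0.00405. Stag3, the cohesin subunit of meiotic chromosomes, was already present in controls and read 5.29, 6.15, 6.08 and 6.27 on the control arrays and 7.26, 6.74, 7.09 and 7.51 on the c/chip arrays (2.3-fold, adjusted p = 0.0242). Hormad2, a protein of the meiotic chromosome axis, rose by 1.59 (0.0292), although c/chip replicate 4 (4.27) lay close to the highest control (4.08). Syce1, another synaptonemal complex gene, was 7.15 in c/chip replicate 1 and 4.76 to 5.21 in the other three, against 3.61 to 3.86 in controls (adjusted p = 0.047). Rpl39l, a testis form of a ribosomal protein, rose by 1.67 (0.00584). Adam2, a sperm surface protein, went the other way and fell from 4.26 ± 0.51 to 2.19 ± 0.13 (SD, n = 4; adjusted p = 5.73e-05).

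Without 1 array at a time the call was lost for Stag3 in 3 (up to 0.0706), Hormad2 in 6 (up to 0.0809) and Syce1 in 13 (up to 0.102) of 16 fits, the highest adjusted p being given in parentheses. With either control MDP replicate 1 or the c/chip MDP array numbered 1 left out, Tex12 was the single meiotic gene called. No meiotic gene was called with the sex-linked covariates or with c/chip replicate 2 alone, and in each of these fits 1 other germline gene was higher and 1 lower. The motif CACGTG occurred in the windows of Slc25a31, Tex12 and Stag3 and in 8.18% of the 16990 genes with a promoter sequence, against 21.7% of the 23 measured meiotic genes with one. TCCCGC, on either strand, was in the same 3 windows, in 25.9% of all and in 60.9% of the 23 meiotic genes. Hormad2, Syce1 and Rpl39l held neither.

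Genes called higher had fewer CpG than genes called lower and than genes whose control level was over the array median. The median window held 13 CpG over all 16990 genes, 14 for 229 genes called higher and 19 for 129 called lower. It held 20 for genes whose control level was over the array median. Windows with 10 or more CpG made up 57.6%, 60.7%, 73.6% and 80.3% of these groups, in the same order. These differences in CpG number were not tested. The called members had a median of 21 CpG in the meiotic list, 5 in the primary granule list, 2.5 in the secondary granule list, 3.5 in the megakaryocyte list and 3 in the mast cell and basophil list. For comparison, all measured members had medians of 16, 5, 3, 5 and 3.

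Genes of primary (azurophil) granules and early neutrophil development formed, of the 52 lists, the one with the largest share of calls. Of 38 measured members 20 were higher and none lower, 52.6% against 1.26% of all genes, with a median difference of 0.92. In 32 of the 38 the control mean was over the array median, and calls were more frequent among bright genes. The lists were chosen with earlier results of these data known, so this share and rank are no separate evidence. The count was 15 to 20 without any 1 array, 7 with the sex-linked covariates and 10 with c/chip replicate 2 alone. The granule enzymes differed in size of change. Elane, neutrophil elastase, read 9.73, 10.16, 9.44 and 9.53 on the control arrays and 11.53, 11.32, 11.34 and 11.39 on the c/chip arrays, a difference of 1.68 ± 0.142 (SE, n = 4 and 4), 3.2-fold higher, adjusted p = 1.71e-05, and its neighbour Prtn3, proteinase 3, rose by 0.58 (0.0119). Mpo and Ctsg, myeloperoxidase and cathepsin G, were already at 11.65 and 11.52 in controls and differed by 0.10 (0.747) and 0.29 (0.26).

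Nkg7, a membrane protein of cytotoxic granules, read 8.41, 8.66, 7.94 and 7.96 on the control arrays and 10.41, 10.18, 10.04 and 10.32 on the c/chip arrays, a difference of 1.997 ± 0.158 (SE, n = 4 and 4), 3.99-fold higher, adjusted p = 1.26e-05. Ms4a3, a tetraspanning protein used to mark granulocyte and monocyte progenitors, read 8.93, 8.60, 8.001 and 7.80 on the control arrays and 10.49, 10.47, 10.41 and 10.22 on the c/chip arrays, a difference of 2.06 ± 0.189 (SE, n = 4 and 4), 4.18-fold higher, adjusted p = 1.82e-05. In both genes the c/chip arrays lay close together and above every control. Trem3, a receptor that signals through an adaptor shared by many myeloid receptors, had a control mean below the array median and rose from 3.40 ± 0.20 to 5.63 ± 0.72 (adjusted p = 0.000964). Pglyrp1, a granule protein that binds bacterial cell walls, rose by 2.14 (0.0158), and Clec5a, a myeloid lectin receptor, by 1.98 (0.00348). Cebpe, the transcription factor needed for later granule genes, rose from 4.65 ± 0.38 to 6.28 ± 0.71 (0.00479), and Gfi1, a repressor that favours neutrophil over monocyte development, by 1.06 (0.0235, lost without control MDP replicate 3, control MDP replicate 4 and c/chip MDP replicate 1).

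Some genes of secondary granules and later neutrophils rose, with c/chip arrays that differed widely among themselves. Of 44 members 8 were higher and none lower, with a median of 0.88. Ltf, lactoferrin, read 2.97, 4.94, 3.39 and 3.01 on the control arrays and 8.64, 5.06, 5.50 and 5.84 on the c/chip arrays (adjusted p = 0.038), so that c/chip replicate 1 stood far above the other three and control replicate 2 came close to the lowest c/chip array. Lcn2, which binds bacterial iron carriers, showed the same 2 arrays overlapping at 5.95 and 5.42 (2.34, adjusted p = 0.0493). Larger differences did not pass: Camp, an antimicrobial peptide, differed by 4.10 (0.105), S100a8 by 3.87 (0.111), Ngp by 3.32 (0.101) and S100a9 by 3.25 (0.174). Cxcr2, the chemokine receptor that draws neutrophils out of the marrow, was even across arrays and rose from 5.96 ± 0.34 to 7.64 ± 0.32 (0.000682). The other named members were Fpr2, a receptor for bacterial peptides (2.40, adjusted p = 0.0318), and Cstdc4, of the stefin protease inhibitors (2.66, adjusted p = 0.0367), which was at 1.43 in c/chip replicate 2. Leaving out 1 array ended the call of Ltf in 9 (up to 0.0993), Lcn2 in 13 (up to 0.142), Fpr2 in 5 (up to 0.0933) and Cstdc4 in 9 (up to 0.106) of 16 fits. The list count fell to 4 without control MDP replicate 4, c/chip MDP replicate 1 or replicate 4 of the c/chip MDPs, and to 2 with the covariates or with replicate 2 alone.

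**Figure D3:**
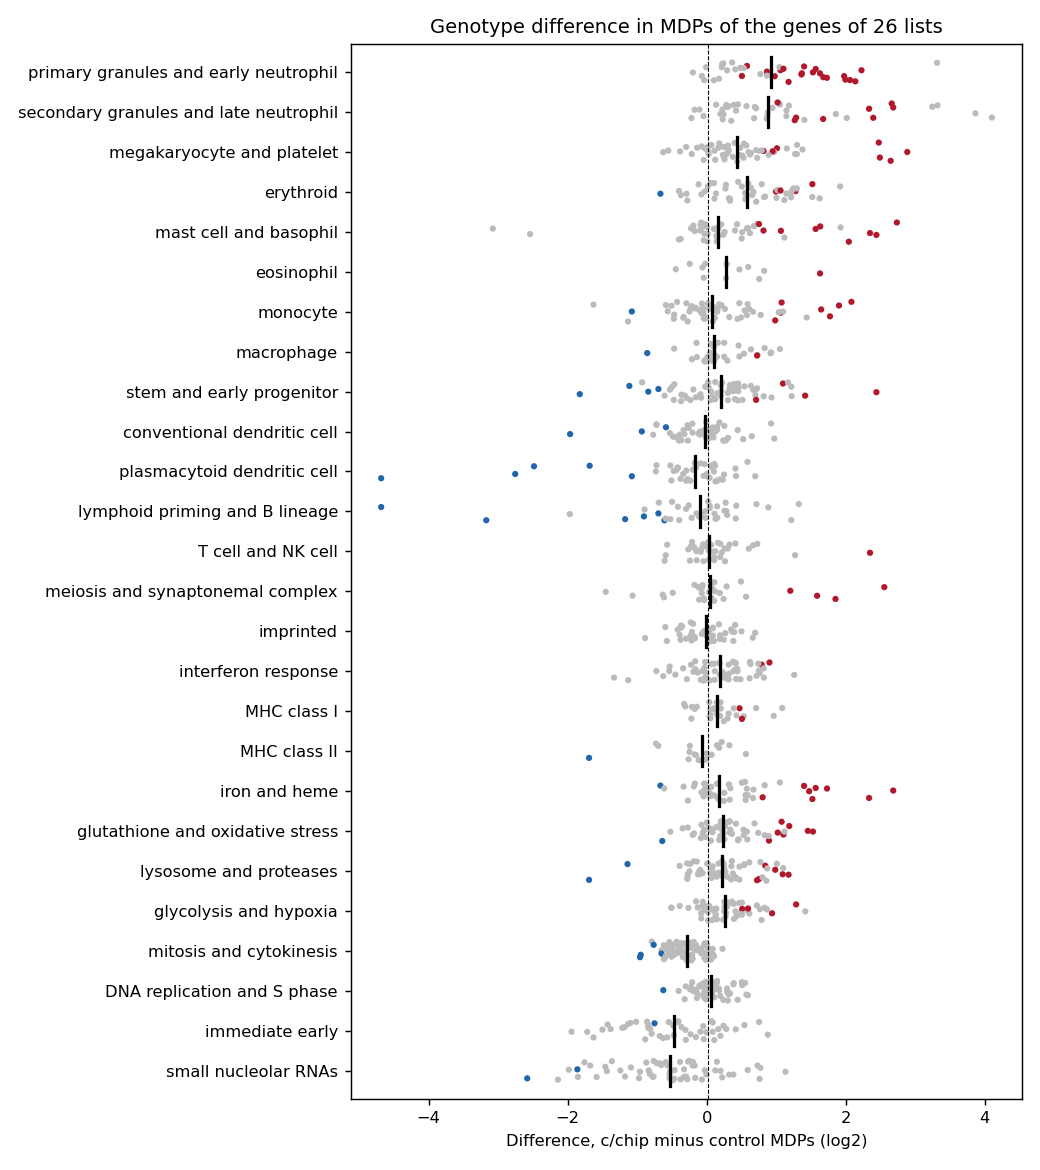
Log2 difference between c/chip and control MDPs (horizontal axis) of each measured gene in 26 lists (vertical axis); red points were called higher, blue lower, grey not called, black bars are list medians and the dashed line is the median of all genes. The primary and secondary granule lists have medians of 0.92 and 0.88, and the mitosis, immediate early and small nucleolar RNA lists lie left of the line.

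Several platelet and megakaryocyte genes rose in c/chip MDPs. Of 55 measured genes 7 were higher and none lower, with a median of 0.44. Pf4, the chemokine of platelet granules, read 6.64, 6.97, 4.24 and 5.30 on the control arrays and 9.19, 8.11, 8.45 and 8.94 on the c/chip arrays, a difference of 2.89 ± 0.478 (SE, n = 4 and 4), 7.39-fold higher, adjusted p = 0.00484. Gp5, a part of the receptor that holds platelets to von Willebrand factor, was below the array median on all 4 control arrays and read 2.85, 2.72, 2.47 and 2.44 on the control arrays and 5.73, 4.11, 5.28 and 5.27 on the c/chip arrays, a difference of 2.48 ± 0.257 (SE, n = 4 and 4), adjusted p = 4.97e-05. Its partner Gp9 rose by 2.49 (0.0177), with c/chip replicate 2 (4.70) just under the highest control (4.71). Selp, the adhesion receptor P-selectin, rose from 4.11 ± 0.71 to 6.76 ± 0.85 (0.00392), and Vwf, von Willebrand factor, by 1.01 (0.0392). Itga2b, the platelet integrin chain, rose by 0.82 (0.0404), as did the tetraspanin Cd9 by 0.95 (0.0283). Calls were lost for Gp9 in 2 (up to 0.0529, without control MDP replicate 3 and c/chip MDP replicate 4), Vwf in 8 (up to 0.113), Itga2b in 10 (up to 0.122) and Cd9 in 6 (up to 0.084) of 16 fits without 1 array. The count fell to 3 without control MDP replicate 3, to 3 with the covariates and to 1 with c/chip replicate 2 alone.

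Red cell genes were less clear. Of 48 members 4 were higher and 1 lower, although the median difference was 0.59. Blvrb, a reductase of heme breakdown products, rose from 5.37 ± 0.33 to 6.89 ± 0.75 (0.0133) and Hemgn, a nuclear protein of erythroid cells, by 1.28 (0.0143). Epor, the erythropoietin receptor, rose by 0.997 (0.0439), and Samd14, which supports Kit signalling in erythroid progenitors, by 1.06 (0.0397). The transferrin receptor Tfrc fell by 0.66 (0.0283). Klf1 and Gata1, the central erythroid factors, did not pass with 1.63 (0.0728) and 1.12 (0.2). The count of higher genes ran from 2 to 13 without 1 array. With the covariates no member was called, and with c/chip replicate 2 alone 4 were higher. Without 1 array the call was lost for Epor in 11 (up to 0.119), Samd14 in 12 (up to 0.104) and Tfrc in 4 (up to 0.0803) of 16 fits.

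Mast cell and basophil genes held 9 calls among 48 genes, all higher, with a median of 0.17, while 14 members had a negative difference. The lowest differences were those of the chemokine genes Ccl4 (-3.08, adjusted p = 0.286) and Ccl3 (-2.54, adjusted p = 0.442), which other cells also make and which did not pass. Ccl4 read 10.56, 10.69, 9.67 and 10.28 on the control arrays and 9.06, 9.40, 5.55 and 4.86 on the c/chip arrays. Gata2, a transcription factor of stem, mast and basophil cells, read 5.58, 6.24, 4.91 and 6.89 on the control arrays and 8.99, 8.40, 8.27 and 7.73 on the c/chip arrays, a difference of 2.44 ± 0.378 (SE, n = 4 and 4), 5.44-fold higher, adjusted p = 0.00277. Cpa3, a protease of mast cell granules, read 5.19, 7.28, 6.03 and 6.04 on the control arrays and 9.56, 7.93, 9.13 and 8.86 on the c/chip arrays, a difference of 2.74 ± 0.368 (SE, n = 4 and 4), 6.67-fold higher, adjusted p = 0.000755. Hdc, the enzyme that makes histamine, rose from 5.45 ± 0.23 to 7.50 ± 0.68 (0.000633), and Ms4a2, a chain of the high-affinity IgE receptor, by 1.63 (0.0292). Gzmb, the cytotoxic protease granzyme B that basophils and mast cells can also carry, rose from 4.37 ± 0.65 to 6.72 ± 0.78 (0.00151). It was the only call among 41 T cell and NK cell genes, of which Lat, a T cell receptor adaptor, gave 1.27, adjusted p = 0.0986. The basophil protease gene Mcpt8 was also called higher, and 5 of the 8 mast cell and basophil markers were called in all. Fcer1a with 0.60, adjusted p = 0.659 and Prss34 with 0.68, adjusted p = 0.453 did not pass, and Cma1 was below the array median in both MDP groups. The count was 5 without control MDP replicate 3, control MDP replicate 4 or replicate 1 of the c/chip MDPs, 2 with replicate 2 alone and 1 with the covariates, and Ms4a2 was lost in 4 of 16 fits (up to 0.0751). Of 12 eosinophil genes Cebpe alone was called, and Epx, the eosinophil peroxidase, ranged from 2.85 to 6.51 on the c/chip arrays (0.83, adjusted p = 0.568).

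**Figure D4:**
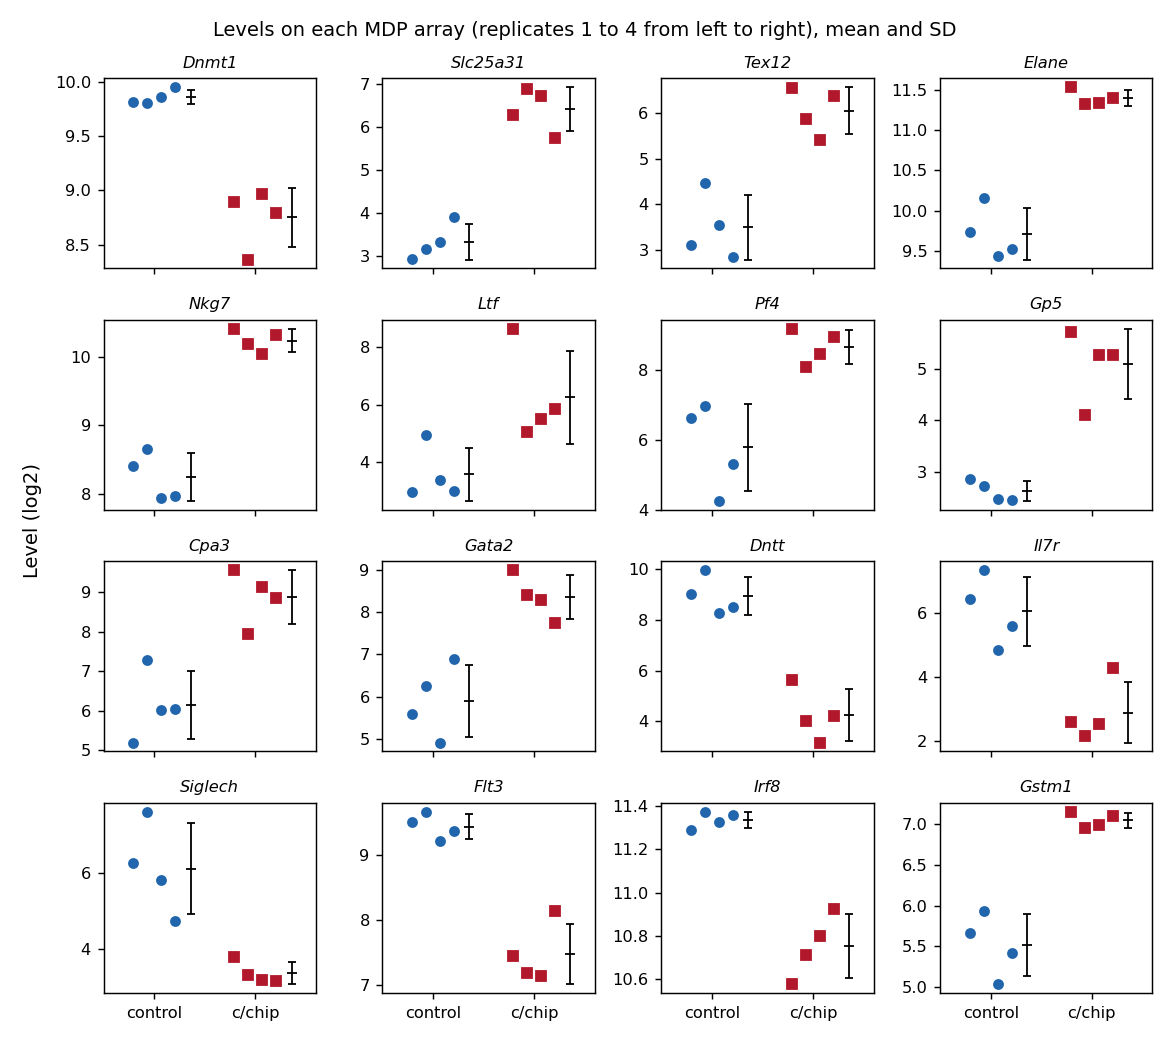
Log2 level (vertical axis) of 16 genes on the 4 control (blue circles) and 4 c/chip (red squares) MDP arrays, replicates 1 to 4 from left to right, with the mean and SD beside them in black. Dnmt1, Dntt, Il7r, Siglech, Flt3 and Irf8 are lower on every c/chip array, and the other 10 genes are higher on every c/chip array; vertical axes differ between panels and do not start at 0.

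Several early lymphoid genes fell. Among 41 members of the lymphoid priming and B lineage list 6 were lower and none higher, against 0.685% lower of all genes, with a median of -0.10. Dntt, the polymerase that adds bases at antigen receptor joints, read 9.02, 9.97, 8.26 and 8.50 on the control arrays and 5.63, 4.01, 3.15 and 4.22 on the c/chip arrays, a difference of -4.68 ± 0.409 (SE, n = 4 and 4), 25.7-fold lower, adjusted p = 1.81e-05. It had the largest difference of any called gene, and the lowest control lay more than 2 units above the highest c/chip array. Il7r, the receptor for interleukin 7, read 6.44, 7.35, 4.85 and 5.61 on the control arrays and 2.61, 2.16, 2.53 and 4.28 on the c/chip arrays, a difference of -3.17 ± 0.472 (SE, n = 4 and 4), adjusted p = 0.00195. Notch1, the receptor that directs T cell fate, fell from 7.99 ± 0.15 to 6.82 ± 0.48 (0.005). Satb1, a chromatin organiser of lymphoid progenitors, fell by 0.61 (0.0147) and Cnn3 fell by 0.90 (0.0451). Ighm, the immunoglobulin mu chain, fell by 0.69 (0.0321) on its brightest probe set, but the mean of its probe sets gave 0.14 (0.932). Leaving out 1 array ended the call for Cnn3 in 13 (up to 0.121) and Ighm in 5 (up to 0.0835) of 16 fits. With the sex-linked covariates 3 members were lower and 2 higher, and with c/chip replicate 2 alone 3 were lower and 4 higher.

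Some genes of plasmacytoid dendritic cells also fell. Of 44 members 5 were lower and none higher, with a median of -0.16, and 3 were lower with the covariates and 2 with c/chip replicate 2 alone. Siglech, a surface lectin of these cells, read 6.28, 7.62, 5.83 and 4.74 on the control arrays and 3.79, 3.31, 3.19 and 3.16 on the c/chip arrays, a difference of -2.75 ± 0.394 (SE, n = 4 and 4), adjusted p = 0.00136. The c/chip arrays all lay near the array median, while the controls were widely spread. Cox6a2, a subunit of cytochrome oxidase that these cells express, fell from 8.26 ± 0.27 to 6.58 ± 0.49 (0.00846). Cmah, which makes a form of sialic acid, fell from 6.38 ± 0.70 to 3.90 ± 0.32 (0.000132), and Mpeg1, a pore-forming protein of phagocytes, fell by 1.08 (0.0367, lost in 5 of 16 fits without 1 array, up to 0.0967). Dntt was the fifth. Bst2 and Tcf4, a surface marker and the master regulator of the lineage, differed by 0.07 (0.945) and -0.41 (0.269).

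Of 48 conventional dendritic cell genes 3 were lower and none higher (median -0.02). With the covariates 1 was lower, and with c/chip replicate 2 alone 1 was lower and 1 higher. Flt3, the receptor for the growth factor on which dendritic cells depend, read 9.49, 9.66, 9.21 and 9.36 on the control arrays and 7.44, 7.17, 7.13 and 8.13 on the c/chip arrays, a difference of -1.96 ± 0.236 (SE, n = 4 and 4), 3.9-fold lower, adjusted p = 0.000271. Irf8, the transcription factor required for monocytes and dendritic cells, read 11.29, 11.37, 11.33 and 11.36 on the control arrays and 10.58, 10.71, 10.80 and 10.92 on the c/chip arrays. The fall was small, 1.5-fold with an adjusted p of 0.0278, but the groups did not overlap. Dpp4 fell by 0.93 (0.0251). Without 1 array the call was lost for Irf8 in 6 (up to 0.0774) and Dpp4 in 4 (up to 0.0623) of 16 fits, and without control MDP replicate 1, control MDP replicate 2 or replicate 2 of the c/chip MDPs Flt3 was the sole member called. Of 18 MHC class II genes, Lgmn, the protease legumain, fell by 1.69 (0.0124), and H2-Oa gave -0.73, adjusted p = 0.523. Of 29 MHC class I and peptide loading genes, H2-K1 rose by 0.47 (0.0392) and Calr by 0.51 (0.0452), calls lost in 12 and 15 of 16 fits (up to 0.112 and 0.117).

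The monocyte list was mixed. Of 61 members 7 were higher and 1 lower, with a median of 0.07. Besides Ly6c2, Gda, which breaks down guanine, rose from 4.11 ± 0.89 to 6.19 ± 0.52 (0.00399), and Clec4e, a receptor for mycobacterial lipids, from 5.50 ± 0.55 to 7.40 ± 0.53 (0.0141). S100a6, a calcium-binding protein, rose by 1.77 (0.0293), with control replicate 3 (6.05) far below the other controls. Fcgr3, a low-affinity IgG receptor, rose from 2.99 ± 0.71 to 4.63 ± 0.42 (0.0109), and Cybb, the NADPH oxidase chain, by 1.08 (0.0292). Cd68, a lysosomal protein of macrophages, rose by 0.99 (0.00772). Mpeg1 was the member that fell. Calls were lost for S100a6 in 2 (up to 0.0774, without c/chip MDP replicate 1 and c/chip MDP replicate 4) and Cybb in 4 (up to 0.0774) of 16 fits without 1 array. With the covariates 1 member was higher, and 1 with replicate 2 alone. Of 32 macrophage genes Ctsd, the lysosomal protease cathepsin D, rose by 0.73 (0.00864) and Cd163, a hemoglobin scavenger receptor, fell by 0.85 (0.0439, lost in 12 of 16 fits, up to 0.108).

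Sensors and paired receptors were also uneven. Of 54 pattern recognition genes 3 were higher: Clec5a, Clec4e and Irak3, a brake on Toll-like receptor signalling, which rose by 1.98 (0.017, up to 0.0522 without control MDP replicate 4 and c/chip MDP replicate 1). Of 55 Fc, CD300, Siglec and related receptors 3 were higher and 2 lower. Cd300c, an activating receptor, read 7.27, 6.74, 6.83 and 6.79 on the control arrays and 4.53, 4.91, 4.73 and 5.10 on the c/chip arrays, a difference of -2.09 ± 0.2 (SE, n = 4 and 4), 4.25-fold lower, adjusted p = 3.12e-05, while Siglecg, an inhibitory receptor, rose by 0.78 (0.0309, lost in 4 of 16 fits, up to 0.0933). Interferon response genes had a median of 0.19 over 61 members. Their 2 calls were Iigp1, a GTPase against intracellular parasites, at 1.74 and 2.64 and so below the array median in both groups (0.90, adjusted p = 0.0141), and Xaf1 (0.79, adjusted p = 0.0309, lost in 5 of 16 fits, up to 0.0836). Neither passed with the covariates.

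Stem and early progenitor genes had calls in both directions. Of 64 members 4 were higher and 4 lower, with a median of 0.21, and none passed with the covariates. With c/chip replicate 2 alone 1 was lower and none higher. Gata2 rose, as did Slamf1, the stem cell antigen CD150, by 1.42 (0.0183), Hlf, a stem cell transcription factor, by 1.10 (0.0157) and Pdzk1ip1 by 0.71 (0.0136). Sdc1, a heparan sulfate carrier, fell by 1.83 (0.0164), Hmga2, a chromatin protein of fetal stem cells, fell by 1.11 (0.028) and Sox4, a factor of early lymphoid and progenitor cells, fell by 0.84 (0.013). Ighm, given above, was the remaining lower member. Leaving out 1 array ended the call for Slamf1 in 3 (up to 0.0533), Hlf in 1 (up to 0.0518, without control MDP replicate 3) and Hmga2 in 4 (up to 0.0827) of 16 fits, and the higher count fell to 2 without control MDP replicate 3 and the lower to 2 without control MDP replicate 4.

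Of 97 transcription factors of blood cell fate 4 were higher and 3 lower. The higher ones were Gata2, Cebpe, Gfi1 and Lmo4 (0.75, adjusted p = 0.0362), and the lower ones Sox4, Satb1 and Irf8. Spi1 (PU.1) and Cebpa, needed for all myeloid cells, differed by 0.07 (0.894) and 0.70 (0.0657). Lmo4 was lost in 6 of 16 fits without 1 array (up to 0.104), and the count of higher factors was 2 without control MDP replicate 3 or replicate 1 of the c/chip MDPs.

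Growth factor receptors showed losses and gains. Of 76 measured, 4 were higher and 4 lower, and with the covariates 4 were lower and none higher. Beside Flt3, Il7r and Notch1, the shared receptor chain Il6st (gp130) fell from 10.28 ± 0.12 to 9.44 ± 0.31 (0.0124). Csf2ra, the GM-CSF receptor chain, rose from 6.35 ± 0.45 to 7.37 ± 0.10 (0.0088), Ifngr1, the interferon gamma receptor chain, by 0.80 (0.0137), Igf1r by 0.82 (0.036) and Epor as given above. Among 75 cytokines and growth factors, Clec11a, a growth factor for progenitors and bone, rose from 4.44 ± 0.31 to 6.47 ± 0.34 (4.97e-05), as did Pf4, while Il12a fell by 0.75 (0.036). Among 59 chemokine and lipid mediator receptors Cxcr2 and Fpr2 were called. Of 59 integrin and adhesion genes 5 were higher, Selp, Cd63 (1.18, adjusted p = 0.0239), Cd9, Itga6 (0.94, adjusted p = 0.00921) and Itga2b. Of 37 complement and coagulation genes Vwf, C1ra (1.02, adjusted p = 0.0392) and Anxa2 (0.77, adjusted p = 0.0337) were higher. The call was lost without 1 array for Igf1r in 5 (up to 0.101), Il12a in 5 (up to 0.0971), Cd63 in 3 (up to 0.0607), C1ra in 9 (up to 0.115) and Anxa2 in 4 (up to 0.0965) of 16 fits.

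A few mitotic genes fell. Of 78 mitosis and cytokinesis genes 67 had a negative difference, with a median of -0.29, and 4 were called lower. Kif23, a motor protein of the cleavage furrow, read 8.83, 9.21, 9.27 and 9.03 on the control arrays and 8.18, 8.08, 7.92 and 8.37 on the c/chip arrays, a difference of -0.95 ± 0.158 (SE, n = 4 and 4), 1.93-fold lower, adjusted p = 0.00495. Prc1, which bundles the central spindle, fell by 0.65 (0.0293), Shcbp1 fell by 0.76 (0.013) and Cenpf, a kinetochore protein, fell by 0.96 (0.038). DNA replication genes had a median of 0.06 over 57 genes and a single call, Brca1 (-0.62, adjusted p = 0.0493), while Pold2 gave 0.59, adjusted p = 0.0764. Ccnd1, cyclin D1, rose from 6.63 ± 0.53 to 8.13 ± 0.27 (0.0233) and was the only call among 39 cell cycle inhibitors and p53 targets. No apoptosis regulator of 36 was called by limma (8 at an unadjusted p under 0.05), the largest values being Dapk1 (0.83, adjusted p = 0.212) and Xiap (-0.72, adjusted p = 0.0768). Without 1 array the call was lost for Prc1 in 5 (up to 0.0747), Cenpf in 8 (up to 0.112), Brca1 in 13 (up to 0.117) and Ccnd1 in 4 (up to 0.0638) of 16 fits, and no mitotic gene passed with the covariates.

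Immediate early genes, which respond to growth signals within minutes, had a median of -0.47 over 47 genes in MDPs and of -0.44 in cMoPs. The single call was Btg1 (-0.75, adjusted p = 0.0354), which was lost in 7 of 16 fits. Fos read 8.28, 8.40, 6.50 and 6.60 on the control arrays and 6.80, 7.02, 3.51 and 4.68 on the c/chip arrays and did not pass (-1.94, adjusted p = 0.288), nor did Btg2 (-1.72, adjusted p = 0.198). Small nucleolar RNAs had the lowest median of the 52 lists, -0.53 over 62 genes, and 2 were called lower. Snord71 read 7.28, 7.02, 7.22 and 6.32 on the control arrays and 3.76, 4.95, 5.45 and 3.34 on the c/chip arrays, a difference of -2.58 ± 0.442 (SE, n = 4 and 4), 5.98-fold lower, adjusted p = 0.00603, and Snora31 fell by 1.86 (0.0445, lost in 12 of 16 fits, up to 0.118). Such short RNAs have no poly(A) tail, and what their probe sets detect with the labelling used was not tested. Of 63 Myc target and ribosome biogenesis genes Srm, the enzyme that makes spermidine, rose from 9.30 ± 0.10 to 10.13 ± 0.10 (0.00262) and Bop1 by 0.75 (0.0287, lost in 6 of 16 fits, up to 0.0689). These 2 calls were 3.17% of the list, near the 3.09% called in the brightest bin of all genes.

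Several antioxidant enzymes of the glutathione system rose. Of 58 genes of the glutathione and oxidative stress list 7 were higher and 1 lower, with a median of 0.23. The 7 also included the NADPH oxidase chain Cybb, given above. Gsr, which regenerates reduced glutathione, read 7.14, 6.997, 7.30 and 7.13 on the control arrays and 8.71, 8.80, 8.37 and 8.50 on the c/chip arrays, a difference of 1.46 ± 0.132 (SE, n = 4 and 4), 2.74-fold higher, adjusted p = 1.82e-05. Gstm1, which conjugates glutathione to other molecules, read 5.67, 5.94, 5.03 and 5.42 on the control arrays and 7.15, 6.95, 6.99 and 7.10 on the c/chip arrays, a difference of 1.53 ± 0.157 (SE, n = 4 and 4), 2.89-fold higher, adjusted p = 4.97e-05. Both genes separated the groups without overlap. Mgst2 rose by 1.11 (0.0205) and Gclm, the regulatory part of the enzyme that starts glutathione synthesis, by 1.19 (0.0419), and Prdx4, a peroxidase of the endoplasmic reticulum, fell by 0.64 (0.0183). The count was 3 without control MDP replicate 3, control MDP replicate 4 or replicate 1 of the c/chip MDPs, and 2 with the covariates, and single calls were lost for Mgst2 in 3 (up to 0.0596), Gclm in 9 (up to 0.118) and Prdx4 in 1 (up to 0.0588, without control MDP replicate 4) of 16 fits.

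A few enzymes of sugar metabolism rose. Of 56 glycolysis and hypoxia genes 4 were higher and none lower (median 0.26). Taldo1, transaldolase of the pentose phosphate pathway, read 8.32, 8.47, 8.41 and 8.26 on the control arrays and 9.36, 9.22, 9.46 and 9.18 on the c/chip arrays, a difference of 0.94 ± 0.147 (SE, n = 4 and 4), 1.92-fold higher, adjusted p = 0.00286. Pygl, which releases glucose from glycogen, rose from 6.22 ± 0.40 to 7.50 ± 0.23 (0.00176). Rpia, of the same pentose pathway, rose by 0.60 (0.0404) and Pkm, pyruvate kinase, by 0.51 (0.0452), calls lost in 13 and 14 of 16 fits (up to 0.12 and 0.122). No gene of the list passed with the covariates. Of 71 respiration and citric acid cycle genes, Slc25a31 and Cs, citrate synthase (0.74, adjusted p = 0.0344), were higher and Cox6a2 lower. Cs was lost in 6 of 16 fits without 1 array (up to 0.0982).

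Of 47 iron and heme genes 8 were higher and 1 lower (median 0.18), several of them also neutrophil or erythroid genes: Ltf, Lcn2, Hp (haptoglobin, 1.57, adjusted p = 0.00761), Blvrb and Tfr2, a second transferrin receptor that senses iron (1.73, adjusted p = 0.0309), while Tfrc fell. The count was 3 at the lowest without 1 array and 1 with the covariates. Of 57 lysosomal genes 6 were higher and 2 lower (median 0.22). Gaa, which digests glycogen in lysosomes, rose from 6.45 ± 0.11 to 7.29 ± 0.23 (0.00602), and Arsb, a sulfatase, by 1.09 (0.0235). Idua rose by 0.75 (0.0404), and Cd63 and Cd68 rose as given above. Lgmn and Ctsf, cathepsin F (-1.14, adjusted p = 0.0445), fell. The calls of single genes were lost for Tfr2 in 5 (up to 0.0835), Arsb in 4 (up to 0.0712), Idua in 11 (up to 0.114) and Ctsf in 10 (up to 0.109) of 16 fits, and 1 lysosomal gene was lower and none higher with the covariates.

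Glycan genes had 3 higher and 4 lower of 67 (median 0.26). B4galt6, which makes lactosylceramide, rose from 4.94 ± 0.51 to 6.57 ± 0.65 (0.0105), B3gnt8 by 1.28 (0.00912) and Galnt6, which starts O-linked chains, by 1.10 (0.0282). The lower members were Cmah and 3 heparan sulfate core proteins, Sdc1, Gpc3 (-1.19, adjusted p = 0.0147) and Sdc4 (-0.98, adjusted p = 0.0452). Among 44 heat shock and unfolded protein genes Ero1a (1.01, adjusted p = 0.0404), Dnajc3 (0.62, adjusted p = 0.0454) and Calr were higher, each by a call that most fits without 1 array lost. Of 61 cholesterol and fatty acid genes Pnpla2, a triglyceride lipase, was higher (0.99, adjusted p = 0.0172), and Fdft1 was not called (0.93, adjusted p = 0.0642). Of 29 eicosanoid genes Lta4h, which makes leukotriene B4, was higher (0.72, adjusted p = 0.0392), while Alox5 ranged from 5.0 to 9.61 on c/chip arrays (1.93, adjusted p = 0.221) and Pla2g12a gave 0.95, adjusted p = 0.107. None of 46 purine, pyrimidine and folate genes was called by limma (11 at an unadjusted p under 0.05), with Mthfd1 at 0.76, adjusted p = 0.0827 and Xdh at 0.76, adjusted p = 0.13. Without 1 array the call was lost for Galnt6 in 5 (up to 0.0806), Sdc4 in 13 (up to 0.125), Ero1a in 11 (up to 0.107), Dnajc3 in 13 (up to 0.132), Pnpla2 in 3 (up to 0.0529) and Lta4h in 11 (up to 0.111) of 16 fits.

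Few genes of the remaining lists were called. Of 54 kallikreins, serpins and metalloproteases Klk8, a secreted serine protease, fell from 8.02 ± 0.39 to 5.78 ± 0.50 (0.000496), as did Adam2. Of 77 Notch, Wnt and TGF beta genes Notch1 and Mfng, which modifies Notch receptors (-0.92, adjusted p = 0.038), were lower. Among 81 feedback genes of cytokine and Ras signalling Etv5 (1.18, adjusted p = 0.0449) and Prkcb (1.30, adjusted p = 0.0297) were higher and Rasa4 lower (-0.88, adjusted p = 0.0309). Gria3 was the single call of 60 neuronal genes (-0.58, adjusted p = 0.0496), and Nnat gave -0.59, adjusted p = 0.485. Muscle genes gave 3 higher and 2 lower of 70: Car3, carbonic anhydrase 3, rose from 7.51 ± 0.62 to 9.36 ± 0.19 (0.000341), Tnnt1, slow troponin T, from 4.51 ± 0.31 to 6.08 ± 0.17 (0.000682) and Ckm, muscle creatine kinase, by 1.14 (0.0294), while Tpm2 fell by 1.25 (0.0269) together with Cnn3. Calls were lost for Mfng in 7 (up to 0.111), Etv5 in 12 (up to 0.112), Prkcb in 6 (up to 0.0856), Rasa4 in 5 (up to 0.0876), Gria3 in 14 (up to 0.132), Ckm in 6 (up to 0.0772) and Tpm2 in 4 (up to 0.068) of 16 fits without 1 array.

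Most called genes, 287 of 432, belonged to no list. AB124611, a transcript with no role given here, read 4.76, 5.58, 4.95 and 5.58 on the control arrays and 8.27, 7.25, 8.39 and 7.26 on the c/chip arrays, a difference of 2.58 ± 0.291 (SE, n = 4 and 4), 5.97-fold higher, adjusted p = 0.000132. Vat1, a vesicle membrane protein, rose from 5.46 ± 0.29 to 7.55 ± 0.28 (4.97e-05). Bmx, a tyrosine kinase of the Tec family on the X chromosome, rose from 3.71 ± 0.28 to 5.55 ± 0.27 (1.82e-05), with all controls between 3.42 and 4.03 and all c/chip arrays between 5.29 and 5.92. Cpne2, a calcium-dependent membrane-binding protein, rose by 1.74 (5.73e-05), Papss2, which makes the sulfate donor of the cell, by 1.63 (0.00014), App, the amyloid precursor protein, by 1.75 (0.00102) and Ubxn2a by 1.61 (0.000717). Other genes with large rises were Dio2, which activates thyroid hormone (2.01, adjusted p = 0.00581), Rtn4r, the Nogo receptor (1.94, adjusted p = 0.0157), Abcd2, a peroxisomal transporter of very long fatty acids (1.72, adjusted p = 0.00248), Sgms2, a sphingomyelin synthase (1.93, adjusted p = 0.0184), Mgam, an enzyme that splits maltose (1.88, adjusted p = 0.0217), Rgcc (1.59, adjusted p = 0.0139), Tuba8 (1.82, adjusted p = 0.0187) and Rps4l (1.83, adjusted p = 0.0449).

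On the lower side, Clip4, a microtubule-associated protein, fell from 4.97 ± 0.28 to 3.32 ± 0.20 (4.97e-05) and Zfp433, a zinc finger protein, from 7.18 ± 0.27 to 5.28 ± 0.51 (0.00033). Zfp938, of the same class, fell by 1.41 (0.00262), Fmnl2, which shapes actin filaments, fell by 1.61 (0.00425), Tbrg3 fell by 1.52 (0.00405), Atg10, an enzyme of autophagy, fell by 1.91 (0.0124), Tns1, of focal adhesions, fell by 1.69 (0.0135) and Mctp2 fell by 1.62 (0.017). The X-linked Gprasp2 fell by 1.89 (0.038) and Magee2 fell by 1.55 (0.0196). Zbtb18 gave -1.49, adjusted p = 0.0191, Slc9a9 -1.38, adjusted p = 0.0239, Lsm10 -1.44, adjusted p = 0.0239, and the microRNA transcripts Mir1898 -1.83, adjusted p = 0.0321 and Mir19a -1.39, adjusted p = 0.0183. Of all 30 genes named outside the lists, calls were lost without 1 array for Sgms2 in 1 (up to 0.0539, without c/chip MDP replicate 1), Mgam in 1 (up to 0.0573, without control MDP replicate 4), Tuba8 in 4 (up to 0.0588), Rps4l in 15 (up to 0.111), Gprasp2 in 9 (up to 0.107), Magee2 in 3 (up to 0.0532), Zbtb18 in 3 (up to 0.0619), Slc9a9 in 4 (up to 0.0676), Lsm10 in 3 (up to 0.0736), Mir1898 in 6 (up to 0.095) and Mir19a in 3 (up to 0.0542) of 16 fits.

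The calls were spread over the genome. Between 1.16% (chromosome 18) and 2.98% (chromosome 15) of the genes of each autosome were called, and 14 of 899 genes (1.56%) on the X chromosome. Of 22113 pairs of neighbouring measured genes 18 were called in the same direction, 12 higher and 6 lower. Among them were Prtn3 with Elane, Ms4a2 with Ms4a3, Gyg with Cpa3, Cd9 with Vwf, and Ly6c2 with Ly6a2 on the higher side, and Il6st with Il31ra and Siglech with Tubgcp5 and Nipa2 on the lower. The meiotic gene Stag3 rose together with its neighbour Map11. Probe sets of neighbouring or overlapping genes can share transcripts, which was not tested. Against 1.95% of all genes called, large gene families held 6 higher and 1 lower of 376 solute carriers (1.86%), 2 higher and 4 lower of 373 Zfp genes (1.61%), 2 higher and 2 lower of 1105 olfactory receptors (0.362%), and none of 79 Rab genes.

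The same genotype comparison was available in cMoPs, and the difference between both genotype effects was tested in the same fit. In cMoPs 25 genes (0.113%) were called, and 14 of them were among the 432 of MDPs. Of the 280 genes higher in MDPs 220 also had a positive difference in cMoPs (median 0.16), against 47.2% of all genes, and of the 152 lower genes 84 had a negative one (median -0.03). With 47.2% of all genes positive, the share of negative differences among the lower genes lay near that of all genes. Dnmt1 fell by 1.10 in MDPs and fell by 0.91 in cMoPs. Of the 7 germline genes called in MDPs, 5 also rose in cMoPs: Slc25a31 by 3.08 in MDPs and 2.63 in cMoPs (adjusted p there = 0.0233), Tex12 by 2.56 and 3.21 (0.00247), Stag3 by 1.20 and 2.18 (0.00102), Hormad2 by 1.59 and 2.18 (0.0146) and Rpl39l by 1.67 and 2.59 (0.000751). Syce1 and Adam2 were not called in cMoPs, with 1.68 (0.429) and -0.52 (1.0), and the cMoP medians of the meiotic and other germline lists were 0.047 and -0.011. Clec11a, Car3 and Klk8 also changed in both, with cMoP differences of 2.60, 1.27 and -2.53. The tests of the difference between the effects did not pass for any of these genes, which does not show that the effects were equal. Both comparisons rest on the control cMoP arrays with the conflicting titles.

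For 13 genes (0.0586%) the genotype effect itself differed between MDPs and cMoPs, and all 13 were called in MDPs. Elane had an MDP effect larger by 1.58 ± 0.201 (adjusted p = 0.00416): its mean was 9.72 in control MDPs, 11.40 in c/chip MDPs, 12.08 in control cMoPs and 12.18 in c/chip cMoPs. Nkg7 (1.75, 0.00416), Ms4a3 (1.97, 0.00667), Gstm1 (1.35, 0.0276), Gsr (1.07, 0.0429) and Hdc (2.39, 0.0221) had the same order of levels. They were low in control MDPs and high in both cMoP groups, and the c/chip MDPs lay between, as for Ms4a3 at 8.33, 10.40, 10.98 and 11.08. Dntt (-4.61, 0.00416), Cmah (-2.56, 0.0188) and Cd300c (-1.82, 0.0188) were highest in control MDPs, with Dntt at 8.94, 4.25, 2.91 and 2.84.

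Gp5, Emilin2 and Srm did not share this order. Gp5 was 2.62, 5.10, 2.63 and 2.47 in the 4 groups, so that it was above the array median in c/chip MDPs alone (2.64 ± 0.364, 0.0067). Emilin2, an extracellular matrix protein, was 7.94, 9.20, 8.67 and 8.51 (0.0188), and Srm 9.30, 10.13, 9.92 and 9.65 (0.0273). The remaining gene was the predicted transcript Gm1604b. Ly6c2 had the MDP and cMoP order of Elane, at 10.21, 11.27, 12.04 and 12.12, but its test of the difference did not pass (0.0926). For most genes called in MDPs, the test therefore does not show an effect particular to MDPs. The count of 13 fell to 6 with the sex-linked covariates and ranged from 5 to 33 when 1 array was left out.

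**Figure D5:**
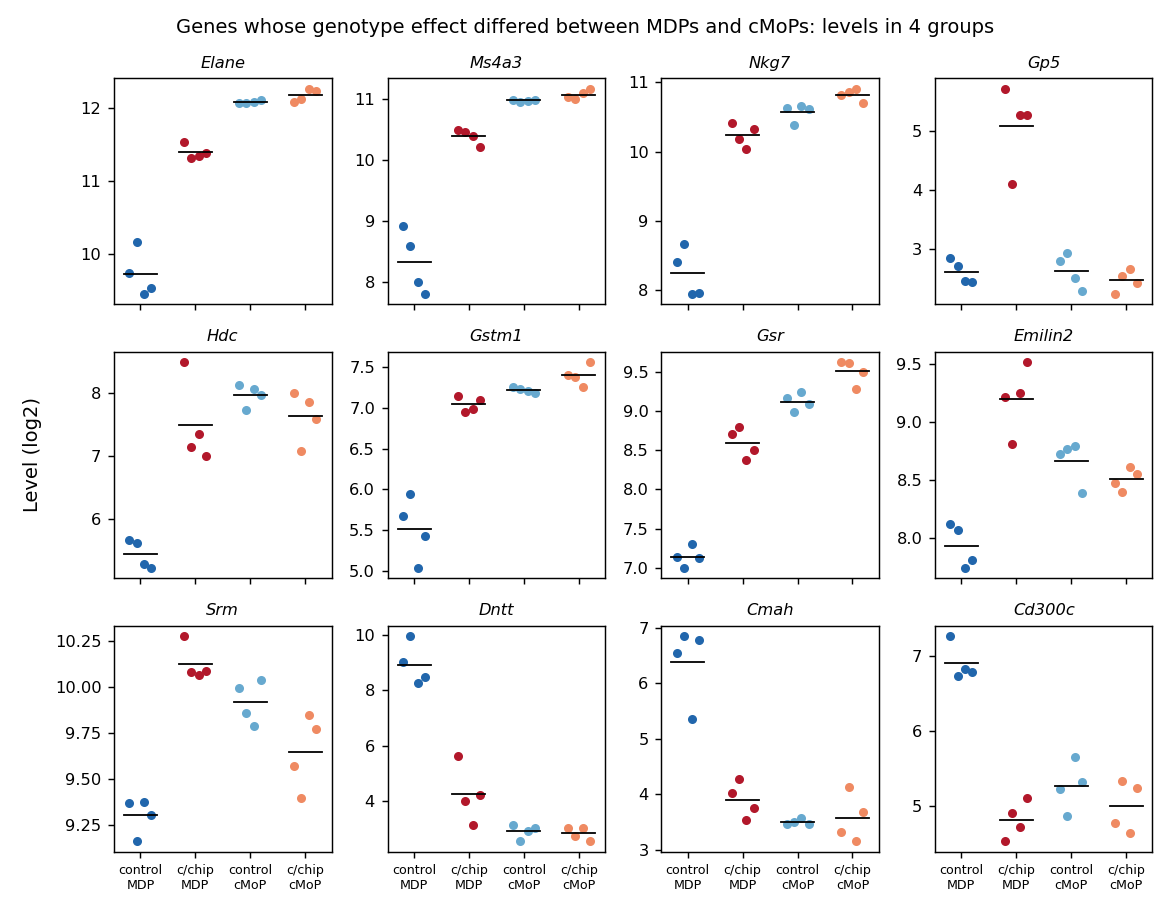
Log2 levels (vertical axis) of 12 genes whose genotype effect differed between MDPs and cMoPs, on each array (points) of the 4 groups (horizontal axis), with group means as black lines. Elane runs from 9.72 in control MDPs over 11.40 in c/chip MDPs to 12.08 in control cMoPs, Gp5 is high in c/chip MDPs, and Dntt is high in control MDPs; vertical axes differ between panels and do not start at 0.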

How the data were processed

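Expression arrays of 16 sorted progenitor samples were used, 4 per group. The deposited values are log2 RMA values per probe set, made by the authors with affy, RMA and limma per the submitters' processing notes, with no version given there. The platform annotation lists numeric transcript clusters, whereas the design text names an earlier array, so the array type is uncertain. Another deposited table of 16 value columns was not used because its names match no label. Of 41345 probe sets 23521 had 1 symbol, 1820 several and 16004 none, and the brightest per symbol was kept, giving 22180 genes.

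A model of 4 group means over the 16 arrays was fitted with limma 3.58.1 in R 4.3.3, with Benjamini-Hochberg adjustment over all genes. The code was tested on simulated data. Python 3.11.15, pandas 2.3.3 and matplotlib 3.10.9 made the tables and plots. Adjusted p values in parentheses are from this fit. Genes named by rule are Dnmt1 and sort markers, up to 5 called members of each list in each direction by size of difference (with under 2 called, the 2 largest differences), 15 non-overlapping called genes in each direction outside the lists, and up to 6 in each direction for the difference between effects, passing over predicted transcripts. Others, such as Mpo, Camp, Spi1 and Uhrf1, were named after their values were seen. The members and lists were chosen with earlier results of these data known. The number of arrays limits the precision. Alternatives covered probe sets, filters, scaling, variance model, weights, sex-linked covariates, the replicate block and each array left out.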

Additional observations from a re-analysis of the deposited data

Results flagged for a closer look

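Single arrays stood apart from the other 3 of their group in 21 of the gene levels named, by the size of the gap to the nearest array relative to the group's range. Chance gives about 1 in 20 such groups, and 2 groups of each named gene were looked at. Among control arrays these were Cd68 at 7.948 on control MDP replicate 3 (others 8.598 to 8.693), Fcgr3 at 4.045 on control MDP replicate 1 (others 2.496 to 2.724), Fmnl2 at 4.804 on control MDP replicate 4 (others 5.745 to 5.937), Gzmb at 5.341 on control MDP replicate 2 (others 3.955 to 4.167), Kit at 9.311 on control MDP replicate 4 (others 9.067 to 9.099), Ms4a2 at 4.318 on control MDP replicate 4 (others 3.685 to 3.779), Rgcc at 3.61 on control MDP replicate 4 (others 5.06 to 5.285), S100a6 at 6.051 on control MDP replicate 3 (others 8.191 to 8.611), Samd14 at 4.242 on control MDP replicate 2 (others 3.651 to 3.727), Sdc4 at 2.474 on control MDP replicate 3 (others 3.618 to 3.85), Shcbp1 at 7.173 on control MDP replicate 2 (others 7.581 to 7.645). Among c/chip arrays they were Fcgr3 at 4.003 on c/chip MDP replicate 3 (others 4.821 to 4.878), Hmga2 at 5.94 on c/chip MDP replicate 2 (others 5.494 to 5.549), Kcnq1ot1 at 4.993 on c/chip MDP replicate 4 (others 5.528 to 5.606), Lmo4 at 8.397 on c/chip MDP replicate 2 (others 8.689 to 8.742), Lta4h at 8.316 on c/chip MDP replicate 2 (others 8.887 to 9.004), Notch1 at 7.536 on c/chip MDP replicate 1 (others 6.548 to 6.624), Prkcb at 4.336 on c/chip MDP replicate 2 (others 5.725 to 5.746), Sdc1 at 5.079 on c/chip MDP replicate 2 (others 3.788 to 3.932), Slc9a9 at 7.257 on c/chip MDP replicate 4 (others 5.853 to 6.09), Srm at 10.275 on c/chip MDP replicate 1 (others 10.064 to 10.088).

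For 12 named genes the genotype effect in MDPs differed from that in cMoPs by a test of the difference itself (limma, Benjamini-Hochberg over 22180 genes). The log2 differences between the effects, with SE and adjusted p, were Cd300c -1.82 ± 0.283 (0.0188), Cmah -2.558 ± 0.398 (0.0188), Dntt -4.614 ± 0.578 (0.00416), Elane 1.58 ± 0.201 (0.00416), Emilin2 1.417 ± 0.219 (0.0188), Gp5 2.636 ± 0.364 (0.0067), Gsr 1.07 ± 0.186 (0.0429), Gstm1 1.349 ± 0.223 (0.0276), Hdc 2.388 ± 0.38 (0.0221), Ms4a3 1.969 ± 0.267 (0.00667), Nkg7 1.748 ± 0.224 (0.00416), Srm 1.094 ± 0.179 (0.0273).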

How the results depend on the processing

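The direction of all but 5 named genes held under every alternative, while many calls did not. The counts of genes higher, lower and differing in effect between MDPs and cMoPs were 280, 152 and 13. With array weights 175 were higher and 89 lower. With the 8 MDP arrays alone they were 46 and 18, and with Xist and Y-linked levels as covariates 53, 31 and 6. Asking for a 2-fold difference left 147 and 67. With the c/chip MDPs represented by replicate 2 alone, chosen after seeing the data and with that array assumed to vary like the other groups, the counts were 104, 61 and 25. Leaving out 1 array at a time gave 130 to 333 higher, 84 to 172 lower and 5 to 33 with different effects. The fewest higher genes, 130, came without control MDP replicate 3, followed by 155 without c/chip MDP replicate 1, 160 without control MDP replicate 4 and 177 without c/chip MDP replicate 4. Probe set choice, removal of the dimmer genes, quantile or median scaling, a trended robust fit and removal of X- and Y-linked genes kept the higher and lower counts within 1.5 times. The replicate block gave 247 higher, 142 lower and 12 with different effects. Replicate numbers are not stated to pair samples, and same-numbered control and c/chip MDP arrays correlated in their deviations at -0.045 to 0.109. Same-numbered MDP and cMoP arrays correlated at 0.045 to 0.121 in controls and 0.063 to 0.105 in c/chip samples. Differently numbered ones correlated at -0.123 to 0.108 and -0.108 to 0.061. A shared origin of MDPs and cMoPs was not tested further.

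Reversed values were Cstdc4 at -0.127 with replicate 2 alone, Epx at -0.382 with the covariates and -0.500 with replicate 2 alone, Ighm at 0.140 with the mean of probe sets, Itgam at -0.248 and -0.303, and Kit at -0.102 and -0.037, each with the covariates and with replicate 2 alone. The cause was not tested. Of 162 named calls, 120 were lost with the covariates, 117 with the 8 arrays alone and 122 with replicate 2 alone, against 42 with array weights and 18 with the block. The 4 arrays a group limit what can be called, and few genes near or below the array median passed.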
